A study of Mus musculus with 2 samples.

Results

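The mouse Zfp genes, named for the zinc finger domains of their proteins, were followed in flexor tendon cells under mechanical shear. Members were all genes whose single symbol in the platform annotation consists of Zfp followed by a number, with no member left out. There were 149 such genes on 213 spots, of 10843 named genes in all. Of the members, 139 had a value on both arrays, 7 (Zfp28, Zfp558, Zfp652os, Zfp707, Zfp783, Zfp90 and Zfp949) had one at 12 h only, and 3 (Zfp84, Zfp950 and Zfp995) had none. The members follow from their symbols alone, but the family was picked with its values on these arrays known, so the values below are a description. RefSeq lists 147 of them as protein coding and 2, Zfp652os and Zfp783, as long noncoding RNAs.

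The data are 2 spotted two-colour arrays of mouse tenocytes, the fibroblast-like cells of tendon. The first array set pooled sheared cells at 6 h (Cy5) against pooled control cells of the same time (Cy3). On the second array, cells sheared at 50 rpm for 12 h (Cy5) were set against control tenocytes of 12 h (Cy3). Strain, age and the number of animals or cultures are not given in the sources used here. There was 1 array per time point and no dye swap, so no test was possible, and higher and lower below describe these arrays.

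Each value is a log2 ratio, likely of sheared over control cells, after each array was centred on its median. The base is assumed from the range of the values, and the direction rests on the dyes of the labels and the usual red-over-green storage of such data. If the ratios ran the other way, every sign below would turn. Centring took away a median of -0.32 from the 6 h array and -0.48 from the 12 h array. A small positive value that does not exceed these sizes is therefore negative as deposited. A gene's value is the median of its spots, called probes below. Spots that list one and the same cDNA accession differed with a pooled SD of 0.900 log2 at 6 h (524 genes and accessions) and 0.997 log2 at 12 h (579). This SD is held below beside values from single spots, and it covers only the spread between spots of 1 array. The median SD of such spots was lower, at 0.476 at 6 h and 0.629 at 12 h. The pooled SD over all genes with several probes was 0.738 and 0.855. The spread between cultures, labellings and arrays is not known. The table holds ratios only, so neither the level of any gene nor the labelled cell type can be checked. The ratios of cell type markers were as follows. Tendon fibroblast markers had medians of -0.01 at 6 h and -0.07 at 12 h (8 of 15 listed genes measured), and ran from -0.74 for Pdgfra to 0.55 for Fmod at 6 h and from -1.85 for Pdgfra to 0.75 for Fmod at 12 h. Leukocyte markers had medians of 0.39 and 0.46 (7 of 10), and ran from -5.42 for Csf1r to 0.80 for Cd14 at 6 h and from -2.31 for Csf1r to 1.70 for Cd68 at 12 h. At 12 h 3 of the 7 were 2-fold higher, Cd68, Cd14 at 1.24 and Adgre1 at 1.14, a share of 42.9%, against 14.5% of all genes. On the same array 2 were 2-fold lower, Csf1r and Lyz2 at -1.05 (probe SD 1.49), a share of 28.6%, against 20.5%. At 6 h 2 of the 7 (28.6%) were 2-fold lower and none higher, against 18.8% and 6.2% of all genes. Endothelial markers had medians of -0.44 and -0.40 (4 of 8), from -2.03 to 1.76 at 6 h and from -0.65 to -0.07 at 12 h. Skeletal muscle markers had medians of 0.23 and 0.31 (5 of 8), from -1.01 to 0.50 at 6 h and from -0.03 to 0.49 at 12 h. The part of other cells in the values below was not tested, and in such bulk RNA fewer cells of a type and less RNA per cell cannot be told apart.

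Most Zfp proteins carry C2H2 zinc fingers, short loops that hold a zinc ion between a pair of cysteines and a pair of histidines and read DNA bases in tandem. In many of them the fingers follow a KRAB domain, which recruits the co-repressor TRIM28 and, through it, histone methylation and heterochromatin, above all at retroelements. A smaller number have other zinc fingers and other work, such as the CCCH proteins of the Zfp36 group, which bind AU-rich elements and hasten mRNA decay. C2H2 genes often lie side by side in the genome, and their transcripts resemble each other, so cDNA spots of related members can share signal. Hybridisation across members was not tested.

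At 12 h the Zfp genes read lower in sheared cells than the bulk of named genes. Their median was -0.67 over 146 members, against -0.14 over all 10731 named genes, and 105 members (71.9%) lay below 0, against 55.6% of all genes. At least 2-fold lower were 53 members (36.3%), where the share of all named genes was 20.5%. At least 2-fold higher were 9 members (6.16%), against 14.5% of all genes. At 6 h the difference was small: the median was -0.27 over 139 members, against -0.11 over 10346 genes, with 30 members (21.6%) 2-fold lower and 7 (5.04%) 2-fold higher, against 18.8% and 6.2% of all genes. The 6 h shares thus lie near the background. At 1.5-fold, 80 members (54.8%) were lower and 17 (11.6%) higher at 12 h, against 33.1% and 24.4% of all genes. At 6 h, 47 members (33.8%) were lower and 18 (12.9%) higher by that measure, against 31.3% and 18.2%. The quartiles of the members ran from -0.89 to 0.27 at 6 h and from -1.26 to 0.11 at 12 h, and the extremes were -3.05 and 1.93 at 6 h and -3.50 and 3.75 at 12 h.

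**Figure D1:**
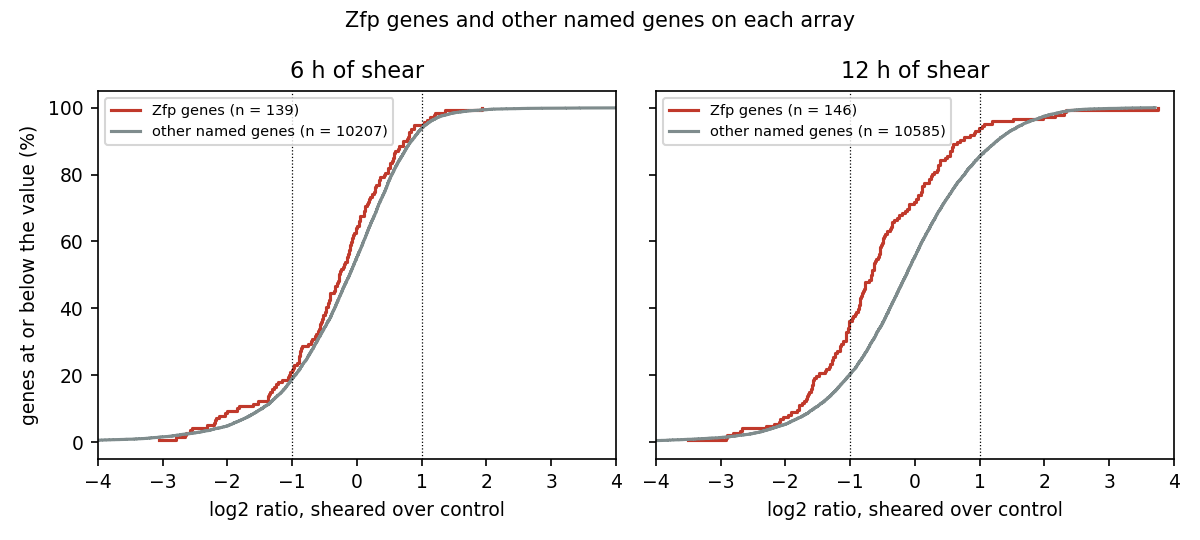
Cumulative share of genes (vertical axis, percent) at or below each log2 ratio of sheared over control (horizontal axis) for Zfp genes (red) and other named genes (grey) at 6 h (left) and 12 h (right); dotted lines mark 2-fold. The red curve runs close to the grey one at 6 h and lies left of it at 12 h, where the medians were -0.67 for Zfp genes and -0.13 for the other named genes; a few genes beyond 4 on either side are outside the axis.

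Values also differed with the number of probes per gene and with the clone series of the spots, and the lower Zfp median at 12 h was present in each of these subsets. The 47 members with 2 or more probes at 12 h had a median of -0.49, against 0.02 over the 5579 genes so measured, and 16 of them (34.0%) were 2-fold lower, against 16.6%, with 3 (6.38%) 2-fold higher, against 17.4%. At 6 h the 42 members with 2 or more probes had a median of -0.09, with 6 (14.3%) lower and 3 (7.14%) higher, against a median of 0.05 and shares of 12.5% and 6.43%. Zfp spots came more often from clones whose accessions begin with BG (108 spots, 50.7%, against 39.7% of named spots) and less often from the AV clones (86 spots, 40.4%, against 47.8%). At 12 h, BG spots gave 90 members a median of -0.93, against -0.31 over 6443 genes, with 42 (46.7%) lower, against 26.9%. AV spots gave 74 members a median of -0.49, against 0.16 over 7001 genes, with 11 (14.9%) lower, against 12.96%. The 2-fold lower share of the AV spots was thus near that of all genes. At 1.5-fold the AV spots held 32 lower members (43.2%), against 22.2% of all genes. Spots outside both series gave 17 members a median of -0.35 at 12 h, against -0.17 over 2166 genes, with 4 (23.5%) lower, against 22.3%. At 6 h these 17 had a median of 0.20, against -0.12 over 2106 genes. The part of the clone source in these values was not tested.

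The best measured Zfp genes can be set out probe by probe. Of the 42 members with 2 or more probes on each array, 16 had every probe of both arrays below 0, 4 had every probe above 0, and 22 did not lie on one side. The same count by probe was not made over all genes. By gene value, 21 of the 42 (50.0%) lay below 0 on both arrays, against 38.4% of all genes so measured. Above 0 on both were 12 (28.6%), against 43.7%. Higher on all probes were Zfp771, Zfp622, Zfp593 and Zfp639. The probes of Zfp771 read 1.28 and 1.13 at 6 h and 0.93 and 0.94 at 12 h. Zfp622, a factor needed for maturation of the large ribosomal subunit (known from its yeast counterpart), read 0.98 and 0.69 at 6 h and 1.01 and 1.12 at 12 h. Zfp593, whose yeast counterpart also acts in ribosome assembly, read 1.02 and 1.23 at 6 h and 0.91 and 0.28 at 12 h. Both of these genes read above 0 on each spot after centring, but the 0.28 of Zfp593 at 12 h is negative as deposited. Zfp639 read 0.41, 0.65 and 0.88 at 6 h and 0.64, 0.86 and 0.66 at 12 h.

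Among the members lower on every probe, the lowest by the mean of both arrays were Zfp954, Zfp957, Zfp871, Zfp821 and Zfp740. Zfp954 read -1.61 and -0.94 at 6 h and -2.56 and -2.04 at 12 h, a gene value 2.42-fold lower at 6 h and 4.92-fold lower at 12 h. Zfp957 read -1.14 and -2.56 at 6 h and -1.26 and -0.94 at 12 h. Zfp821 read -1.12 and -1.62 at 6 h and -1.24 and -1.55 at 12 h, so that its gene values of -1.37 and -1.39 hardly differed between the arrays. Zfp871 had gene values of -1.21 (probe SD 0.14) and -1.59 (probe SD 0.99). Zfp740 had gene values of -1.35 (probe SD 1.63) and -1.07 (probe SD 0.12), and its 6 h probes lay far apart at -0.20 and -2.50.

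The members with the most spots show how far probes of one gene can disagree. Zfp330, a nucleolar protein, read 0.70, 1.64, 0.57 and 1.37 at 6 h and 0.90, 1.16, -0.18 and 1.18 at 12 h, with gene values of 1.04 and 1.03 (2.05-fold higher on each array). Of the 3 members that listed one accession on a pair of spots, at 6 h Zfp62 read -0.43 and -2.12 on such a pair. At 12 h the same pair read 0.60 and 0.16, while the other spots of Zfp62 read -2.08 and -4.09. Zfp644, linked to the G9a and GLP histone methyltransferases in human cells, read -0.71, 1.54, -0.76 and 0.51 at 6 h and -1.99, 1.39, -1.89 and 0.62 at 12 h, so each probe stood on the same side of 0 on both arrays and the probes disagreed with each other. Zfp276 read between 0.03 and 0.13 at 6 h, against -0.63, -0.61 and -1.34 at 12 h. Zfp592 had gene values of -0.57 (probe SD 0.62) and -0.67 (probe SD 0.68), and Zfp35 of 0.88 (probe SD 0.20) and 0.85 (probe SD 1.30). Over the members with several probes, the pooled probe SD was 0.666 log2 at 6 h (42 genes) and 1.05 at 12 h (47 genes), against 0.738 and 0.855 over all genes.

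**Figure D2:**
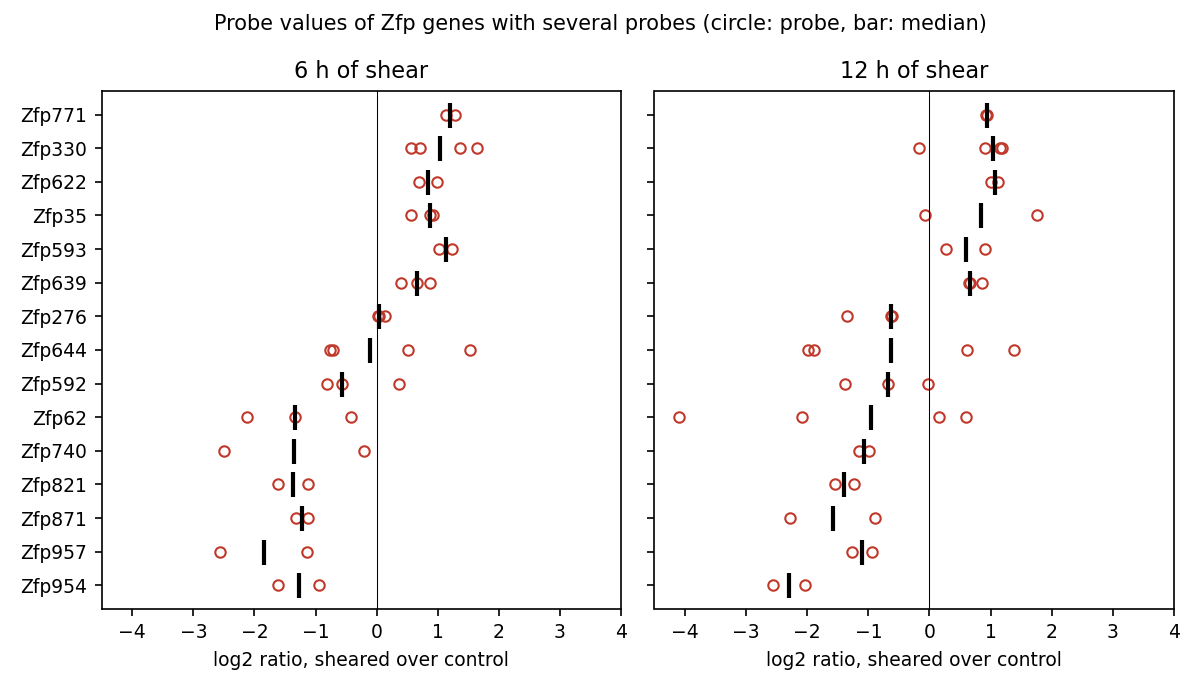
Log2 ratios of sheared over control for single probes (circles) and their median (bar) in Zfp genes with several probes, at 6 h (left) and 12 h (right). Zfp771, Zfp622 and Zfp639 form tight groups above 0 on both arrays and Zfp954 and Zfp821 lie below 0 on both, while the probes of Zfp644 and Zfp62 spread over several log2 units at 12 h.

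The promoters of members at both ends of this ranking are shown because all their probes stood on opposite sides of 0, and they serve as examples. They are RefSeq windows of build GRCm38.p6 around the gene start, 5′ to 3′ on the gene's strand. Capitals mark motif matches on either strand. The motifs searched were the GC box, spelled GGGCGG, the box spelled CCAAT, the ETS site with the letters CCGGAAG, and the TATA box with the letters TATAAA.
Zfp771, higher, chr7:127244276-127244575, plus strand: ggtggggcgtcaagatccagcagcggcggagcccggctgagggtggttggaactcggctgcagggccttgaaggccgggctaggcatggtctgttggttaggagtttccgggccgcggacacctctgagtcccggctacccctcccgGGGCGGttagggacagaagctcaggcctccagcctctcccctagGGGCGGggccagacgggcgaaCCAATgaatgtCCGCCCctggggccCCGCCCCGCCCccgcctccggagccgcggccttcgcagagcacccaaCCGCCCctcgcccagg
Zfp622, higher, chr15:25984116-25984415, plus strand: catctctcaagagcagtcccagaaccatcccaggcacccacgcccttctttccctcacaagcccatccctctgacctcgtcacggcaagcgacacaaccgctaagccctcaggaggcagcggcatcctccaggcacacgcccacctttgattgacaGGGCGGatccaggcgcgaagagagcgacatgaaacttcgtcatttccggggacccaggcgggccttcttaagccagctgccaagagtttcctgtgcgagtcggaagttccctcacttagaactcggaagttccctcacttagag
Zfp954, lower, chr7:7121427-7121726, minus strand: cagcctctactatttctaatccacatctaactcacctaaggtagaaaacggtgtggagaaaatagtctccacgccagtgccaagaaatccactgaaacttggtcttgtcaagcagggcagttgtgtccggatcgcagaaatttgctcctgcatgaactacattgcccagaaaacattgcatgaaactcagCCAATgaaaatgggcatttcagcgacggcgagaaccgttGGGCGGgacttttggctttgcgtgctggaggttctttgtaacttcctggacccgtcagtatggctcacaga
Zfp957, lower, chr14:79247318-79247617, minus strand: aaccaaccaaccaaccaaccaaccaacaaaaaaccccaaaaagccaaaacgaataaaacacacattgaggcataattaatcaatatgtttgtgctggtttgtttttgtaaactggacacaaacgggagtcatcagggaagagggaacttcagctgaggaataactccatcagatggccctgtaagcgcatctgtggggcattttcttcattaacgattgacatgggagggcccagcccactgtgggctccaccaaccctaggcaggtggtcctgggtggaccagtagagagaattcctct

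These promoters held 25 CpG dinucleotides in Zfp771 and 17 in Zfp622, against 11 in Zfp954 and 4 in Zfp957. The GC box was found 6 times in Zfp771, where 1 motif match overlaps another, with 1 match each in Zfp622 and Zfp954, and no match in Zfp957. Over the family the medians of CpG-rich and CpG-poor members lay close together. Promoters were matched for 117 of the 149 members. The 59 members measured at 12 h with at least 18 CpG in their richest promoter had a median of -0.63, and the 55 with fewer had -0.80, against -0.13 and -0.14 over all named genes split at the same number. Of the 144 Zfp promoters, 57.6% held the GC box, 41.7% the CCAAT box, 16.7% the ETS site and 5.56% the TATA box. In all 32851 promoter windows these shares were 35.7%, 37.4%, 8.86% and 13.6%, and in the 11117 promoters of genes named on the arrays they were 57.6%, 37.9%, 15.6% and 8.76%. A match describes letters in a window and is not a binding site.

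The Zfp36 group, the CCCH-type mRNA decay factors that respond early to growth factors and stress, was measured by 2 of its 4 members, each on 1 spot. Zfp36, tristetraprolin, read 0.20 at 6 h, which is negative as deposited, and -0.35 at 12 h. Zfp36l2 read 0.89 at 6 h and -0.66 at 12 h. Neither value of Zfp36 reaches 1.5-fold, and all 4 values lie within the 0.900 and 0.997 SD between spots of one accession.

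Members that bind RNA or ribosomes mostly read at or above 0. Of 5 measured of 9 listed, 1 passed 2-fold in each direction at 12 h, where 20.5% of all genes were lower and 14.5% higher, and none did at 6 h. The medians were 0.57 at 6 h and 0.36 at 12 h, the second negative as deposited. Beside Zfp622, the group held Zfp598, the ubiquitin ligase that marks collided ribosomes, at 0.57 and 0.36. Zfp830, tied to splicing, read 1.09, 0.81 and 0.79 at 6 h and 0.01, 0.29 and -0.12 at 12 h, so its spots were close together on each array and higher at 6 h. Zfp326, a partner of RNA polymerase II elongation, stood at 0.48 and 0.91. The member that stood apart was Zfp638, an RNA-binding protein that also takes part in fat cell differentiation, with -0.51, -0.52 and -1.79 at 6 h and -1.81, -0.65 and -2.85 at 12 h.

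Activators and promoter-binding factors lay around 0 at 6 h, and 4 of 6 lay below 0 at 12 h (66.7%, against 55.6% of all genes). None of 6 measured of 10 listed passed 2-fold at 6 h, where 18.8% of all genes were lower and 6.2% higher. At 12 h Zfp335, a regulator needed in neural progenitors, was the 1 member past 2-fold, at -1.01. On that array 20.5% of all genes were lower and 14.5% higher. Zfp281, a regulator of pluripotent cells, stood at 0.27 (probe SD 0.08) and -0.37 (probe SD 1.20). Zfp410, known as an activator of Chd4, stood at 0.13 and 0.05, and Zfp64 at -0.18 and -0.54. Zfp384, a nuclear matrix protein that restrains bone formation, stood at 0.56 and 0.11 and Zfp24 at 0.35 and -0.46. The medians were 0.20 at 6 h, negative as deposited, and -0.41 at 12 h.

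Regulators of mesenchymal, fat and other lineages held some of the lowest values, most of them from single spots. Of 10 measured of 13 listed, 4 were 2-fold lower on each array, where 18.8% of all genes were at 6 h and 20.5% at 12 h, and 1 was 2-fold higher at 6 h, where 6.2% were. The group medians were -0.49 at 6 h and -0.48 at 12 h, against -0.27 and -0.67 over the family. Zfp521, which holds back fat cell and osteoblast differentiation, stood at -2.31 at 6 h and -3.50 at 12 h, 4.95-fold and 11.3-fold lower, the lowest member of the 12 h array. Its relative Zfp423, which commits cells to the fat lineage, stood at -2.17 at 6 h and 0.14 at 12 h, the 12 h value being negative as deposited. Zfp516, an activator of brown fat genes, likewise stood at -1.16 and 0.24, negative as deposited at 12 h. Low on both arrays was Zfp292 at -2.65 and -1.37. Zfp462, a heterochromatin-linked developmental factor, stood at -0.41 and -1.56.

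The other lineage regulators had 2 probes on at least 1 array, except Zfp703 with 1. Zfp503 read -0.62 and -0.51 at 6 h and -0.91 and -2.35 at 12 h. Zfp219, a partner of Sox9 in cartilage, had gene values of -0.41 (probe SD 0.06) and -0.49 (probe SD 0.26). Zfp467, which favours fat over bone cells, stood at -0.06 and 0.47, the second negative as deposited. Zfp750, an epidermal differentiation factor, stood at 1.36 on 1 probe at 6 h and -0.48 (probe SD 1.06) at 12 h. Zfp703, a co-repressor studied in breast cancer, stood at 0.49 and 0.11.

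Imprinting, retroelement and stem cell factors had medians below that of the family. Of 7 measured of 9 listed, 4 were 2-fold lower on each array, where 18.8% of all genes were at 6 h and 20.5% at 12 h, and 1, Zfp961, was 2-fold higher at 12 h, where 14.5% were. The medians were -1.03 at 6 h and -1.01 at 12 h. Zfp57 and Zfp445, KRAB proteins that keep imprinted regions methylated, stood at -2.18 and -1.48, and at -1.03 and -1.79. Zfp568, which silences a placental Igf2 transcript, stood at -2.21 and -1.67. The stem cell gene Zfp42 (Rex1) stood at -2.12 and -0.57, and Zfp296, used in reprogramming, at -0.76 on 1 probe and -1.01 (probe SD 0.48).

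The remaining members stood above 0 on at least 1 array. Zfp809, which binds the primer binding site of murine leukaemia virus, stood at 0.79 at 6 h and -0.78 at 12 h. Zfp961 stood at 0.15 at 6 h, negative as deposited, and at 1.98 at 12 h. All of the 7 genes but Zfp296 rested on 1 spot at each time.

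Of the factors of mitosis, ubiquitin and chromatin, Zfp330 stood above 0 on both arrays and the other members below 0, with Zfp644 near 0 at 6 h. Of 7 measured of 9 listed, 4 were 2-fold lower at 6 h and 3 at 12 h, with 1 higher on each array, where 18.8% and 20.5% of all genes were lower and 6.2% and 14.5% higher. The group medians were -1.04 and -0.86. Zfp451, a SUMO ligase, stood at -2.00 and -1.92. Zfp217, an oncogene product of co-repressor complexes, stood at -1.25 and -1.14, and Zfp91, a ubiquitin ligase of the noncanonical NF-kappa-B pathway, at -1.04 and -0.66. Zfp318, which controls IgD splicing in B cells, stood at -1.53 and -2.80. Zfp365 stood at -0.65 and -0.86. Zfp644, whose probes lay on both sides of 0, stood at -0.10 and -0.63, and its 6 h value turned to 0.14 with the mean of its probes.

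Of the 3 members placed with nerve growth factor receptor signalling and the cytoskeleton, Zfp185, an actin-associated LIM domain protein, stood at -2.79 and -2.92, 6.91-fold and 7.58-fold lower on 1 spot. Zfp110 and Zfp369, which bind the p75 neurotrophin receptor, stood at 0.44 and -0.49, and at -0.89 and -0.60; the group medians were -0.89 and -0.60. Of 5 genes listed as kidney and muscle factors, the 2 measured were Zfp637 at 0.35 and 0.57 and the kidney repressor Zfp354a at -0.87 and -0.12.

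**Figure D3:**
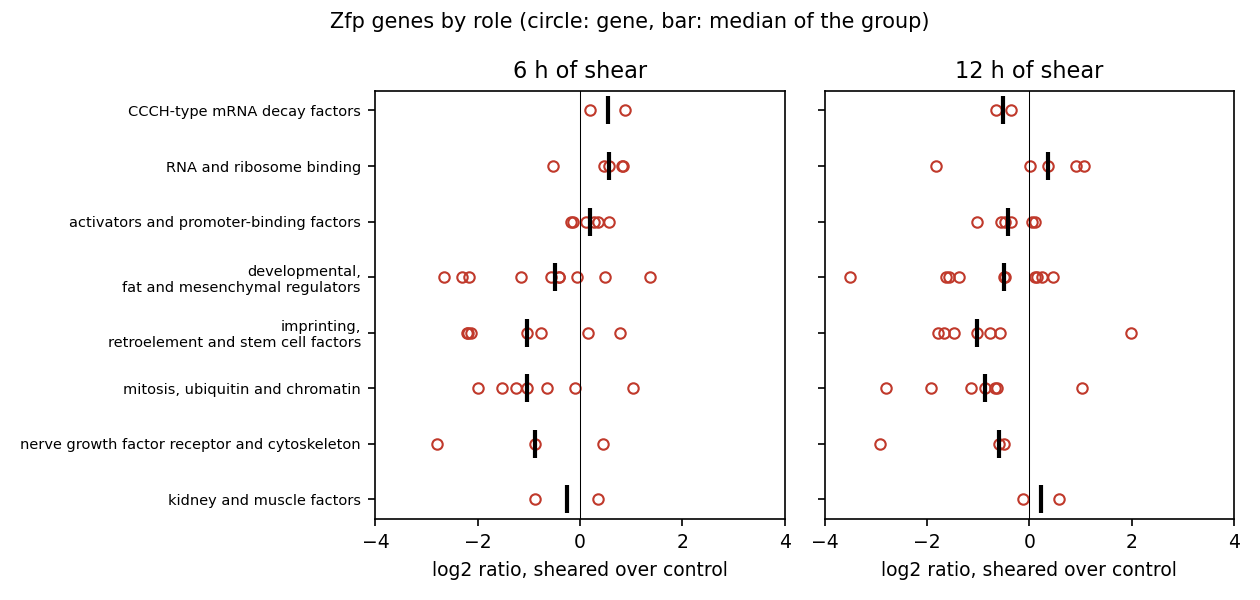
Log2 ratios of sheared over control of Zfp genes grouped by role (circles: genes, bars: group medians) at 6 h (left) and 12 h (right). RNA and ribosome binding members sit mostly above 0 after centring, with medians of 0.57 and 0.36, the second negative as deposited. Imprinting and stem cell factors have medians of -1.03 and -1.01.

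The extremes of the family on each array came from single spots. The highest member at 12 h was Zfp12, at 1.20 at 6 h and 3.75 at 12 h, 2.30-fold and 13.5-fold higher. The highest at 6 h was Zfp386, at 1.93 and 2.30 (3.81-fold and 4.93-fold higher). Zfp658 stood at 0.57 and 2.34 and Zfp729a at 0.80 and 2.17, so both were higher at 12 h, the array whose values they were picked by. The lowest at 6 h was Zfp616, at -3.05 and -1.97, or 8.30-fold and 3.91-fold lower. Zfp101 stood at -2.64 and -0.88, Zfp608, a regulator of recombination genes in thymocytes, at -2.57 and -0.92, and Zfp407 at -2.54 and -2.04. These 3 and Zfp616 were lower at 6 h than at 12 h. Zfp616, Zfp101 and Zfp608 were picked by their 6 h values. The difference of 0.50 in Zfp407 rests on 1 spot read on each array, and the spread of such differences between arrays is not known. Zfp618, a partner of Uhrf2, stood at -1.82 and -2.70, Zfp280b at -0.08 and -2.90 and Zfp58 at -2.04 and -2.18.

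Across the members the 6 h and 12 h values went together about as they did across all genes. Pearson's r was 0.63 and Spearman's rho 0.67 over 139 members, against 0.66 and 0.74 over 10286 genes, and the arrays had separate control RNA. Genes are not independent replicates, and the probes are the same on both arrays. At least 2-fold lower on both arrays were 19 members (13.7%), against 9.8% of all genes: Zfp185, Zfp217, Zfp292, Zfp318, Zfp407, Zfp445, Zfp451, Zfp521, Zfp568, Zfp57, Zfp58, Zfp616, Zfp618, Zfp740, Zfp748, Zfp821, Zfp871, Zfp954 and Zfp957. At least 2-fold higher on both were 3, Zfp12, Zfp330 and Zfp386 (2.16%), against 4.34% of all genes. Another 11 members (7.91%) were 2-fold lower at 6 h only and 30 (21.6%) at 12 h only, against 8.81% and 9.18% of all genes, and 4 more were lower at 12 h with no value at 6 h. Below 0 on both arrays were 79 members (56.8%, against 44.9% of all genes) and above 0 on both were 30 (21.6%, against 35.5%).

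**Figure D4:**
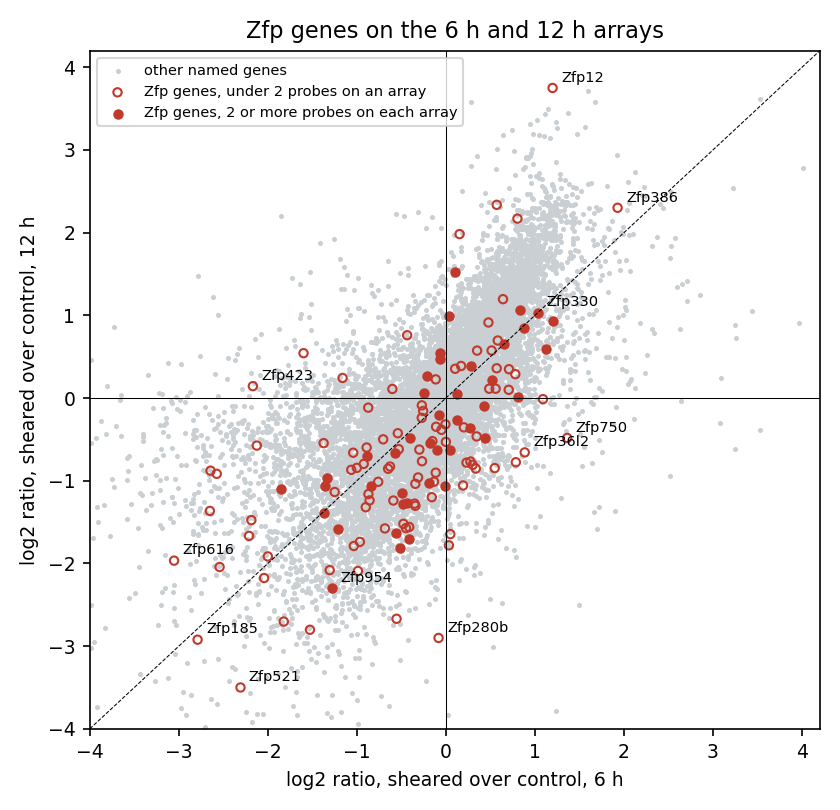
Log2 ratios of sheared over control at 6 h (horizontal) and 12 h (vertical) for Zfp genes with 2 or more probes on each array (filled red), other Zfp genes (open red) and other named genes (grey); the dashed line marks equal values, and grey points beyond the axes are not drawn. Of the 139 Zfp genes, 79 lie below 0 on both axes and 30 above 0 on both, and the points farthest out, such as Zfp12 and Zfp521, rest on 1 spot.

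The members read lower at 12 h than at 6 h by the median, with and without centring, while the direction over all genes turned with centring. The 12 h value minus the 6 h value had a median of -0.27 over the members, against 0.12 over all genes, and 86 members (61.9%) were lower at 12 h, against 43.4% of all genes. As deposited these medians were -0.42 and -0.04, with 96 members (69.1%) lower at 12 h, against 52.2% of all genes. By at least 1 log2, 26 members (18.7%) were lower at 12 h and 14 (10.1%) higher, where 7.35% and 11.5% of all genes were. The widest differences between the arrays were -2.82 in Zfp280b and 2.55 in Zfp12. Over the 42 members with 2 or more probes on each array, the median difference was -0.25, against 0.11, with 29 (69.0%) lower at 12 h, against 43.3% of such genes. Only Zfp809 and Zfp36l2 passed 1.5-fold higher at 6 h and 1.5-fold lower at 12 h, and no member did the reverse, where 0.603% and 0.719% of all genes did. As deposited, without centring, the 6 h values of 0.46 in Zfp809 and 0.56 in Zfp36l2 fall short of 1.5-fold.

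Zfp genes that lie next to each other were not set apart from the others by their medians. In the RefSeq gene order, 69 members had a Zfp gene as nearest protein-coding neighbour on at least 1 side and 78 had not. The medians were -0.27 and -0.30 at 6 h and -0.67 and -0.66 at 12 h. Fewer of the members with a Zfp neighbour were 2-fold lower at 12 h, 19 of 67 (28.4%), against 33 of 77 (42.9%). On that array 20.5% of all genes were. At 6 h these were 11 of 65 (16.9%) and 19 of 74 (25.7%), where 18.8% of all genes were. The difference between these sets of members was not tested. In a run of 7 adjacent Zfp genes, the 4 measured members Zfp398, Zfp282, Zfp212 and Zfp956 lay between -1.52 and -1.06 at 12 h and between -0.59 and 0.19 at 6 h. In another, of 10, Zfp180, Zfp93, Zfp61 and Zfp94 lay between -1.04 and -0.84 at 12 h and between -1.0 and 0.55 at 6 h. A run of 20 held Zfp58, Zfp748 and Zfp729a at -2.18, -2.08 and 2.17 at 12 h, so neighbours did not always read alike. These runs were picked after their values were seen.

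Other zinc finger genes read much like the Zfp genes. For 72 genes of other C2H2 families the median at 12 h was -0.64. Of them, 27 (37.5%) were 2-fold lower and 7 (9.72%) higher, against 20.5% and 14.5% of all genes. At 6 h their median was -0.27 over 70 genes, with 17 (24.3%) lower and 5 (7.14%) higher, against 18.8% and 6.2%. Of these C2H2 genes, the following were named after their values were seen. Snai2 stood at -1.01 and -2.31 (probe SD 0.25 at 12 h) and Gli3 at -0.96 and -2.29 (probe SD 0.18), against 1.47 and 1.38 (probe SD 0.16) for Klf4. For 17 other CCCH genes the medians were -0.51 at 6 h and -0.95 at 12 h. At 6 h 3 (17.6%) were 2-fold lower, against 18.8% of all genes, and at 12 h 8 (47.1%), against 20.5%. None was 2-fold higher on either array, where 6.2% and 14.5% of all genes were. The splicing regulator Mbnl1 stood at -1.10 and -1.92 (3 probes). Their 12 h medians thus lay below that of all genes too.

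The co-repressor Trim28 itself stood at 0.49 at 6 h and 0.85 at 12 h. Over 28 measured of 33 listed genes of the KRAB co-repressor and of heterochromatin, the medians were -0.38 and -0.24, with 5 (17.9%) lower and none higher at 6 h, against 18.8% and 6.2% of all genes. At 12 h, 7 of 28 were lower and 1 (3.57%) higher, against 20.5% and 14.5% of all genes. Below 0 lay 18 of the 28 at 6 h (64.3%, against 55.3% of all genes) and 16 at 12 h (57.1%, against 55.6%). Setdb1, the methyltransferase that Trim28 recruits, stood at -0.23 and -0.47 (probe SD 0.82 and 1.53), and its partner Atf7ip at -1.69 and -2.11. The heterochromatin protein Cbx5 stood at -1.19 and -1.32, but its probes lay far apart (probe SD 2.15 and 2.12). Above 0 on both arrays were, among others, Hdac1 at 0.56 and 0.85, Rbbp4 at 0.45 and 1.03 and Rbbp7 at 0.68 and 0.98. Of 30 measured of 37 listed deadenylation and mRNA decay genes, through which the Zfp36 group acts, 3 were lower and 1 (3.33%) higher at 6 h, against 18.8% and 6.2% of all genes, with a median of -0.04. At 12 h, 8 (26.7%) were lower and 4 (13.3%) higher, against 20.5% and 14.5%, with a median of -0.11. The scaffold Cnot1 stood at -0.39 and -1.36, the deadenylase Cnot6 at -1.42 and -2.18 and the helicase Ddx6, on 1 spot, at 1.34 and 1.18. Below 0 lay 16 of the 30 on each array (53.3%), against 55.3% of all genes at 6 h and 55.6% at 12 h. The single genes named in this paragraph were not picked by a rule.

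**Figure D5:**
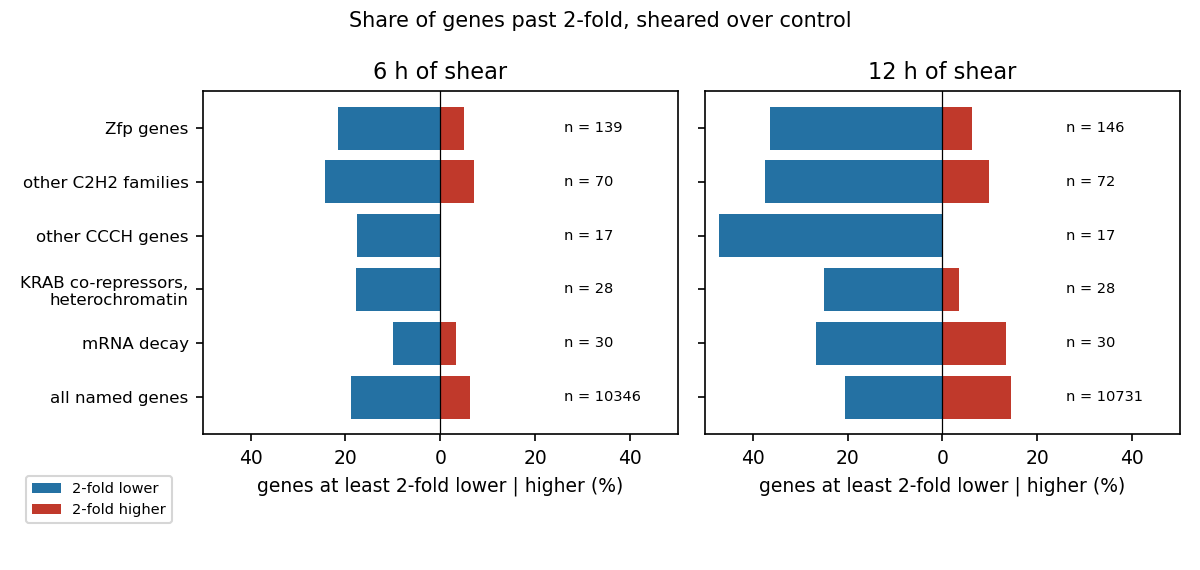
Percent of genes past 2-fold lower (blue, left of 0) or past 2-fold higher (red, right of 0) in sheared over control cells at 6 h (left panel) and 12 h (right panel), with the number of genes measured. At 12 h the blue bars of Zfp genes and other C2H2 families reach 36.3% and 37.5%, against 20.5% of all named genes.

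Fewer values were given for Zfp spots than for named spots in general at 6 h. Of the 213 Zfp spots, 16 (7.51%) had no value at 6 h and 4 (1.88%) none at 12 h, against 5.11% and 1.45% of named spots. Of the members, 102 had 1 spot, 33 had 2, 11 had 3 and 3 had 4. Within 1.5-fold of the array median lay 74 members (53.2%) at 6 h and 49 (33.6%) at 12 h, against 50.5% and 42.5% of all genes.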

How the data were processed

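Per the labels, RNA of sheared cells (Cy5) and of control cells (Cy3) was hybridised on 1 two-colour array per time point, 6 h and 12 h. The deposited values are log ratios per spot, taken as log2; scanner, background correction, normalization and spot filter are not given in the sources used here. Of 42624 spots, 39776 had a value at 6 h and 41717 at 12 h; deposited values ran from -8.48 to 5.48. Intensities were not used, so the number of arrays and the spread between spots limit the precision, and the depth is unknown.

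The median of all spots was subtracted array by array. Probes were named through GEO's platform annotation: 21701 had 1 symbol, 1124 several (not named) and 19799 none. Probes of 1 symbol were summarised per gene by their median. All 149 gene IDs were found in RefSeq's GRCm38.p6 table, with no symbol changed. The members and lists were chosen with earlier results of these data known. Members were named by rule: the 5 highest and 5 lowest at each time, by the smaller of both absolute values, and among those with 2 or more probes all on one side (4 higher existed); up to 4 each way past 1.5-fold on opposite sides; the 6 with most probes (ties alphabetical); and every role group member. Genes of 2 role groups were kept in 1, a change made after values were seen. A split by KRAB domain was planned and not run, since no protein sequences were used. Alternatives are given below. The code was run on permuted values with planted shifts, which checks only the arithmetic of the summaries. The software was pandas 2.3.3 and numpy 2.4.6 under Python 3.11.15.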

Additional observations from a re-analysis of the deposited data

Results flagged for a closer look

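Zfp809 and Zfp36l2 stood past 1.5-fold on opposite sides of 0 at the different times. Zfp809 read 0.79 at 6 h and -0.78 at 12 h, and the 12 h value minus the 6 h value was -1.56. For Zfp36l2 the values were 0.89 and -0.66, and the difference was -1.54. As deposited, without centring, the 6 h values were 0.46 for Zfp809 and 0.56 for Zfp36l2, so neither passed 1.5-fold (0.585 log2) higher. Each gene had 1 spot and 1 array per time, so the difference was not tested.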

How the results depend on the processing

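The median of the Zfp genes stayed below 0 under the alternatives given here. It was above 0, at 0.20, for the 17 members on spots outside the BG and AV series at 6 h. At 6 h (-0.27) the family median was -0.59 without centring, -0.089 with 2 or more probes, -0.42 on BG spots and -0.14 on AV spots. At 12 h (-0.67) it was -1.14, -0.49, -0.93 and -0.49 in that order. Without centring, 2 members (1.44%) were 2-fold higher at 6 h (7 in the main setting) and 1 (0.719%) on both arrays (3). At least 2-fold lower were then 86 (58.9%) at 12 h (53) and 38 (27.3%) on both (19). Shares of all genes were not counted without centring, so these counts have no background beside them. Fewer genes enter with 2 or more probes. At 6 h 3 members (7.14%) were then higher and 6 (14.3%) lower, against 6.43% and 12.5% of all genes so measured. At 12 h these were 3 (6.38%) and 16 (34.0%), against 17.4% and 16.6%. On both arrays they were 1 (2.38%) and 5 (11.9%), against 5.11% and 7.33%. At 1.5-fold, 18 members (12.9%) were higher and 47 (33.8%) lower at 6 h, against 18.2% and 31.3% of all genes. At 12 h these were 17 (11.6%) and 80 (54.8%), against 24.4% and 33.1%. On both arrays they were 10 (7.19%) and 39 (28.1%). At 3-fold, higher and lower were 1 (0.719%) and 16 (11.5%) at 6 h and 5 (3.42%) and 25 (17.1%) at 12 h. On both arrays these were 1 (0.719%) and 8 (5.76%). Shares of all genes were not counted at 3-fold, nor at 1.5-fold on both arrays. With print blocks centred, 4 (2.88%) were 2-fold higher at 6 h, and the share of all genes was not counted. BG spots gave 4 higher at 6 h (4.71%, against 7.3% of all genes on BG spots). AV spots gave 11 lower at 6 h (15.7%, against 14.4% of all genes on AV spots). At 12 h they gave 5 higher and 11 lower (6.76% and 14.9%, against 20.1% and 12.96%). On both arrays they gave 1 higher and 4 lower (1.45% and 5.8%), and those shares of all genes were not counted. The clone series were chosen after seeing the data. Of 130 values of named members, 14 changed sign under some setting, 13 of them without centring. The cause of these shifts was not tested. The comparison by KRAB domain was not run. No paired analysis was possible because each time point has 1 array, and no array could be left out.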

Other observations

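A further 19 spots list a Zfp symbol beside other symbols and were not used above. At 6 h, 17 had a value, with a median of 0.13, 3 at least 2-fold lower and 1 higher. At 12 h, 18 had a value, with a median of -0.69, 6 lower and 1 higher. By gene, 18.8% of all named genes were lower and 6.2% higher at 6 h, and 20.5% and 14.5% at 12 h. The shares over all spots were not counted.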
